A study of Mus musculus with 36 samples.

Results

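The untreated cultures of mouse cortical cells in batch 1 were compared with those in batch 2. The members are the control libraries with a labelled RNA integrity number (RIN) of at least 6, which are 10 of the 36 RNAseq libraries of the series, 6 in batch 1 (libraries 1 to 6) and 4 in batch 2 (libraries 21 to 24). The lowest RIN kept was 7.4, and the control libraries just outside the bound, 19 and 20 of batch 2, had RINs of 2.7 and 1.8. Of 55487 genes in the deposited count table, 20696 had a mean count above 5 over the 10 libraries and were tested. All 10 cultures were dissociated cells of the cortex at embryonic day 18 (C57EDCX, sold by BrainBits), kept for 10 days in NBactive1 medium and then for 72 h in fresh medium with no drug. The labels give no genotype beyond the code C57EDCX, no transgene, no sex, and no statement of how many embryos a culture holds. They number the batches without saying whether a batch is a cell delivery, a plating, an extraction or a sequencing run, so these cannot be told apart, and since nothing says that libraries of 1 batch came from separate preparations, the p-values below measure the spread between libraries. The other treatment groups, 1 µM DEX (dexamethasone, a glucocorticoid receptor agonist) and 1 µM DEX with 1 µM RU-486 (mifepristone, which blocks that receptor), had 9 libraries each with a RIN of at least 6 (5 in batch 1 and 4 in batch 2) and are used to ask whether the same batch difference appeared there, in the fit of the interaction, and to choose the genes named over all genes.

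A cortex dissociated shortly before birth yields glutamatergic neurons that were born in the cortical wall and GABAergic interneurons that migrated in from the ganglionic eminences of the ventral forebrain. It also yields radial glia and other progenitors, from which astrocytes and oligodendrocyte precursors are made around and after birth, and a few microglia, which come from the yolk sac. Neurons do not divide, so transcripts of mitosis in such cultures are usually taken to come from progenitors, glia and other dividing cells. Which cells held a given cell cycle transcript was not tested here.

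Between 24200944 and 82437454 reads were counted per library in batch 1 and between 27806404 and 47326341 in batch 2, and RIN was between 7.8 and 9.2 in batch 1 and between 7.4 and 8.0 in batch 2. Batch 1 was not uniform in sex-linked transcripts. Xist, the X-linked RNA that silences an X chromosome in female cells (chrX:103460366-103483254, GRCm38), was at 645, 1101, 652 and 979 CPM in libraries 1, 3, 4 and 5, at 24.8 and 32.1 CPM in libraries 2 and 6, and between 0.255 and 0.545 CPM in batch 2. CPM are counts scaled to a fixed library total (cpm of edgeR, on TMM-scaled totals). Ddx3y, a Y-linked RNA helicase gene (chrY:1260771-1286629), had 0 counts in libraries 1, 3, 4 and 5, 53.3 and 46.2 CPM in libraries 2 and 6, and between 50.3 and 55.7 CPM in batch 2. The batch comparison therefore also sets mostly Xist-high libraries against libraries with Y-linked transcripts, and counts without those 4 libraries are given over all genes and beside the main lists. DEX and DEX + RU-486 libraries repeated the pattern, since 3 of 5 in each batch 1 group had Xist above 100 CPM and 4 of 4 in each batch 2 group had Ddx3y above 1 CPM.

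**Figure D1:**
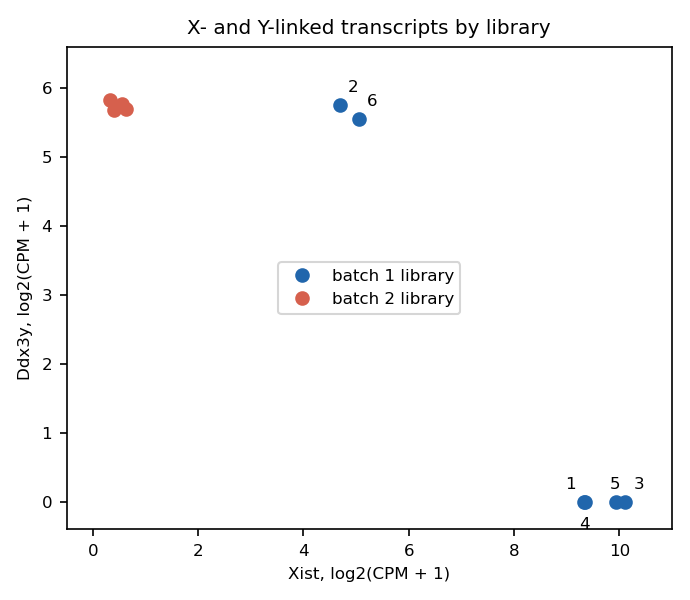
Xist (horizontal axis) and Ddx3y (vertical axis) in the 10 untreated libraries, both as log2(CPM + 1), with 1 point a library and the batch 1 libraries numbered. Libraries 1, 3, 4 and 5 lie at the lower right, libraries 2 and 6 have Ddx3y with 24.8 and 32.1 CPM of Xist, and the 4 batch 2 libraries have Ddx3y with almost no Xist.

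Transcripts of the mitochondrial genome took 15.2% ± 4.0 (SD, n = 6) of the counts in batch 1 and 29.5% ± 3.66 (SD, n = 4) in batch 2, with no overlap (exact permutation test over 210 arrangements, two-sided, p = 0.0048, adjusted p = 0.0079 over 5 library measures). Most of this was the mitochondrial ribosomal RNAs mt-Rnr1 and mt-Rnr2, at 9.54 to 19.1% in batch 1 and 23 to 30.7% in batch 2, while the 13 mitochondrial protein genes together held 0.833 to 1.44% and 1.81 to 1.96%. With every library thinned to the smallest total, 24302 ± 1335 genes had a count in batch 1 and 28740 ± 1284 in batch 2 (SD, n = 6 and 4, exact permutation test, adjusted p = 0.0079). Ribosomal protein genes held 1.59% ± 0.0847 of the counts in batch 1 and 1.36% ± 0.0806 in batch 2 (SD, n = 6 and 4, exact permutation test, adjusted p = 0.012), but with all 12 control libraries the share was 0.094 points higher in batch 2 (adjusted p = 0.59). In a principal component analysis of 2000 genes the first component held 46.1% of the variance and separated the batches, with batch 1 from -45.74 to -8.40 and batch 2 from 41.20 to 51.05. Counts of every pair of libraries in a batch differed by more than sampling noise (chi-square per degree of freedom between 6.0 and 81.9), so none was treated as a repeat deposit.

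In the untreated cultures of batch 2 most pan-neuronal, mature neuron and synaptic vesicle genes were lower, and most members of the interneuron list other than receptor subunits, most oligodendrocyte precursor genes and, at low levels, microglia genes were higher. Among genes of dividing cells, 17 of 32 of the G2 and M phases were higher (8 to 19 with 1 library left out). With RIN as a covariate 5 of them were higher, while their median log2 fold change was 0.93, against 0.72. Of 28 S phase genes 4 were higher and 3 lower (1 and 1 with RIN as a covariate). At an adjusted p under 0.05 (edgeR quasi-likelihood test), 4186 genes (20.2% of those tested) were higher in batch 2 and 4153 (20.1%) were lower, so about 4 in 10 genes passed and the count of a list is read against that. The CPM of the batches did not overlap in 3108 genes higher in batch 2 (15% of those tested) and in 3277 lower (15.8%). The log2 fold change, batch 2 minus batch 1, had a median of 0.05 over all genes and a median size of 0.44. Without the 4 Xist-high libraries 4314 genes were higher and 4072 lower, and 6817 of the original 8339 calls were made again in the same direction. With RIN as a covariate the counts were 1545 higher and 2475 lower, and with all 12 control libraries 2640 and 2791. With upper-quartile scaling in place of TMM 62.3% of the calls were higher, against 50.2% here. In these bulk libraries fewer cells of a type and less of its RNA per cell cannot be told apart. In all, 41 of 183 tested entries of the neuronal lists were higher and 86 lower, 43 of 80 glial entries were higher and 5 lower, 60 of 155 entries of dividing and progenitor cells were higher and 6 lower, and 23 of 186 stress entries were higher and 64 lower, where a gene in several lists counts in each. Of the glial entries 12 had a mean count of 5 or less in batch 1 and were tested only through batch 2, and without these 36 of 68 were higher and 5 lower. Without such entries 41 of 182 neuronal entries were higher and 86 lower. The counts were 59 and 6 of 154 for dividing and progenitor cells and 22 and 64 of 183 for stress. Where a list below had 0 calls in a direction in this comparison, 0 of its members passed an unadjusted p under 0.05 in that direction and DESeq2 called 0, except where another count is given.

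**Figure D2:**
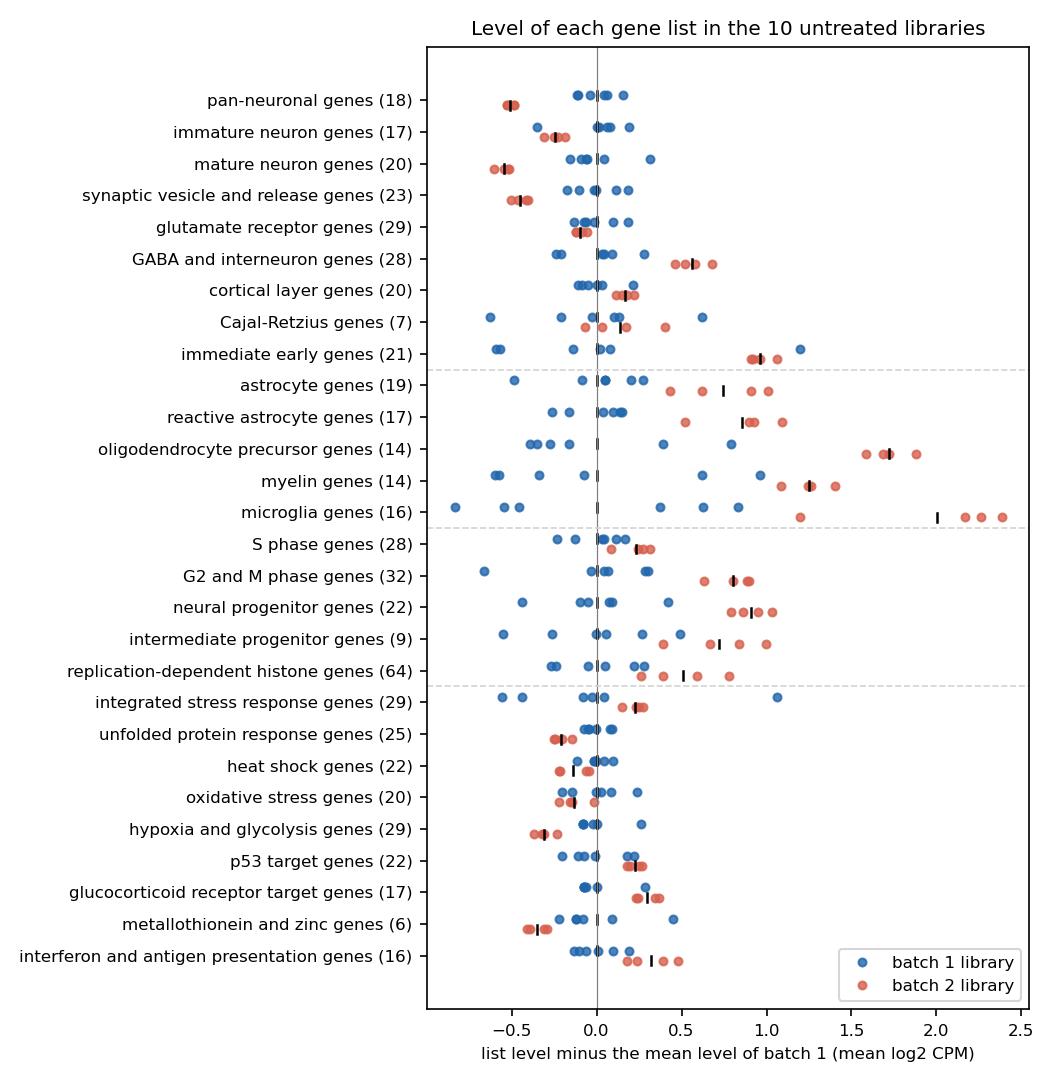
Level of each gene list in the 10 untreated libraries, as the mean log2 CPM over the tested members (their number in parentheses) minus the mean of batch 1, with 1 point a library and a short bar for the mean of each batch. Lists of neuronal, glial, dividing and stress genes run from top to bottom. Microglia and oligodendrocyte precursor genes lie farthest to the right in batch 2, where 7 of the 16 microglia genes and 1 of the 14 precursor genes were tested only through batch 2, and pan-neuronal and mature neuron genes to the left, and library 1 lies apart from the rest of batch 1 in the immediate early and integrated stress response genes.

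Of 18 pan-neuronal genes, 13 were lower in batch 2 and 0 higher, with a median log2 fold change of -0.46, against 0.05 over all genes (15 lower and 0 higher without the Xist-high libraries). Their mean log2 CPM was 7.87 to 8.14 over the libraries of batch 1 and 7.46 to 7.50 over those of batch 2, without overlap. Rbfox3, which encodes the nuclear antigen NeuN, had 105, 117, 101, 110, 106 and 115 CPM in batch 1 and 59.5, 55.1, 64.5 and 64.9 CPM in batch 2 (log2 fold change -0.84 ± 0.07 SE, adjusted p = 3.1e-06). Tubb3, the neuronal beta-tubulin, had 625 to 843 CPM in batch 1 and 396 to 433 CPM in batch 2, and Map2, a dendritic microtubule protein gene, 1487 to 1949 and 1236 to 1486 CPM. The change of Map2 was the smaller of these, at -0.35 ± 0.10 (adjusted p = 0.016, and 0.061 and 0.059 without library 22 or 23), and with all 12 control libraries it was 0.63 (adjusted p = 0.24). Thy1, a surface glycoprotein gene that postnatal projection neurons switch on, fell the most in the list, from 107 to 216 CPM in batch 1 to 31.5 to 33.1 CPM in batch 2 (-2.06 ± 0.17, adjusted p = 2e-06).

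Among 20 genes of mature neurons 12 were lower and 2 higher, with a median of -0.48 (14 and 2 without the Xist-high libraries). Nrgn, the postsynaptic calmodulin-binding protein neurogranin of forebrain excitatory neurons (chr9:37544492-37552904), had the largest fall, and it was also the largest among all protein-coding genes that met the rule for naming. It was at 277, 215, 126, 217, 181 and 206 CPM in batch 1 and at 24.7, 20.6, 26.8 and 23.7 CPM in batch 2. The lowest batch 1 library, library 3, was thus far above the highest of batch 2 (-3.09 ± 0.18, adjusted p = 2.5e-07). Camk2a, the kinase of the excitatory postsynaptic density, fell from 230 to 374 CPM to 77.1 to 84.6 CPM (-1.74 ± 0.13, adjusted p = 9.5e-07). Sv2b, a synaptic vesicle glycoprotein gene, fell by 1.34 on the log2 scale. The members that rose were Rph3a, a Rab3 effector of vesicle release, from 42.7 to 66.2 CPM to 123 to 154 CPM (1.36 ± 0.11), and Scn1a, a sodium channel gene abundant in fast-spiking interneurons, whose batches overlapped (0.41 ± 0.13, adjusted p = 0.022, and 0.066 and 0.068 without library 22 or 24).

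Genes of the synaptic vesicle and its release were lower in 16 of 23 cases and higher in 1. The vesicular glutamate transporter Slc17a7, which fills vesicles of cortical excitatory neurons, had 88.9, 53.9, 37.6, 43.7, 48.8 and 45.4 CPM in batch 1 and 8.26, 10.6, 10.7 and 10.3 CPM in batch 2 (-2.41 ± 0.21, adjusted p = 3.1e-06). The member that rose was Slc32a1, the transporter that fills inhibitory vesicles. Stx1a, a plasma membrane SNARE gene, fell by 0.90, and Syp, the vesicle protein synaptophysin, by 0.83. Syn1 and Syn2, the synapsins, fell by less (-0.46 ± 0.12 and -0.37 ± 0.10). Of the 17 tested genes of immature neurons 9 were lower and 2 higher. Gap43, a growth cone protein gene, and Stmn1, a microtubule destabilizer, fell by 0.86 and 0.74, whereas Sox4, a transcription factor of newborn neurons, rose from 214 to 295 CPM to 325 to 377 CPM (0.42 ± 0.09, adjusted p = 0.0022) and Igfbpl1, a gene of newly born neurons, rose from 2.3 to 8.39 CPM to 11.1 to 17.3 CPM. Dcx, the migration protein doublecortin, did not pass the test (-0.29 ± 0.14, adjusted p = 0.11), but did without library 1 (-0.39, adjusted p = 0.0052). Of the 17 genes 4 were lower with RIN as a covariate.

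Of 29 glutamate receptor and postsynaptic scaffold genes, 14 were lower and 4 higher. The 4 that rose were the kainate receptor subunits Grik1, Grik2 and Grik3 and the AMPA receptor subunit Gria4. Grik1 had 10.5 to 18.3 CPM in batch 1 and 42.2 to 49.4 CPM in batch 2 (1.79 ± 0.13, adjusted p = 8.7e-07), and Grik3 had 11.2 to 18.1 and 46.1 to 56 CPM (1.74 ± 0.13, adjusted p = 6.9e-07). Grik2 rose by 0.71 ± 0.12 and Gria4 by 0.41 ± 0.09. Gria1, an AMPA subunit abundant in pyramidal cells, did not pass the test, at 287 to 368 CPM in batch 1 and 330 to 368 CPM in batch 2. Grm3, a metabotropic receptor, and Cacng8, an AMPA receptor auxiliary subunit, fell by 0.71 and 0.80. The median over the list was -0.29, while its mean log2 CPM overlapped between batches (5.75 to 6.07 against 5.76 to 5.83).

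The interneuron list split by the kind of gene. Of the 28 tested members 14 were higher and 13 lower (14 and 11 without the Xist-high libraries), with a median of 0.40, and 14 of the 16 members that are not GABA-A receptor subunits were higher (median 1.87), whereas 11 of the 12 receptor subunits were lower and 0 higher (median -0.68). With all 12 control libraries 10 of the 28 were higher and 11 lower, with a median of 0.06, and the split was 10 of 16 higher (median 1.43) and 9 of 12 subunits lower (median -1.05). GABA-A receptors sit on the cells that receive GABA, pyramidal neurons included, and most of the other members mark the cells that make it. Exceptions are Calb2 and Reln, which Cajal-Retzius cells carry too, and Cck, a peptide gene that pyramidal neurons share, of which Calb2 and Cck were the 2 that fell. Gad1 and Gad2 encode the enzymes that make GABA from glutamate. Gad1 (chr2:70553072-70602014) had 53.3, 58.3, 35.7, 40.8, 68.1 and 48.6 CPM in batch 1 and 164, 167, 185 and 205 CPM in batch 2 (1.82 ± 0.14, adjusted p = 1.3e-06). Gad2 rose alike, from 13.8 to 28.2 CPM to 71.4 to 96.2 CPM (1.93 ± 0.19). Slc32a1, the vesicular GABA transporter, had 5.33 to 11.6 CPM in batch 1 and 20 to 23.1 CPM in batch 2 (1.39 ± 0.18, adjusted p = 6.6e-05).

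The homeobox genes of the ganglionic eminences rose by similar amounts. Dlx1 had 12.7, 22, 20.4, 18.3, 23.2 and 22.9 CPM in batch 1 and 74.1, 77.7, 81.8 and 78.2 CPM in batch 2 (1.97 ± 0.13, adjusted p = 4.2e-07), and Dlx2 and Dlx5 each rose by 2.03. Sp8 and Sp9, zinc finger genes of interneuron progenitors and migrating interneurons that stand in the striatal and ganglionic eminence list, rose by 2.22 and 1.70. Sst, the peptide somatostatin of a large interneuron class (chr16:23889573-23890958), was at 33.3, 19.2, 13.3, 17.8, 38.6 and 16.6 CPM in batch 1 and at 114, 108, 155 and 174 CPM in batch 2 (2.56 ± 0.26, adjusted p = 9.1e-06). The lowest batch 2 library was therefore well above the highest of batch 1, library 5. Calb2, the calcium-binding protein calretinin of another interneuron class and of Cajal-Retzius cells, went the other way, from 15.6 to 30.9 CPM to 6.72 to 8.73 CPM (-1.60 ± 0.18, adjusted p = 2.6e-05). Among the receptor subunits Gabra5 had 107 to 154 CPM in batch 1 and 62 to 69.3 CPM in batch 2 (-0.96 ± 0.10, adjusted p = 9.6e-06). The striatal list, Sp8 and Sp9 included, went in both directions (6 of 17 higher and 5 lower), with Ppp1r1b, a dopamine signaling gene of striatal neurons, falling by 1.32. Of the 15 members that were not tested only through batch 2, 5 were higher and 5 lower. The list as a whole was at 233 to 288 summed CPM in batch 1 and at 301 to 332 in batch 2, and a part of striatal cells in the interneuron values was not tested.

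**Figure D3:**
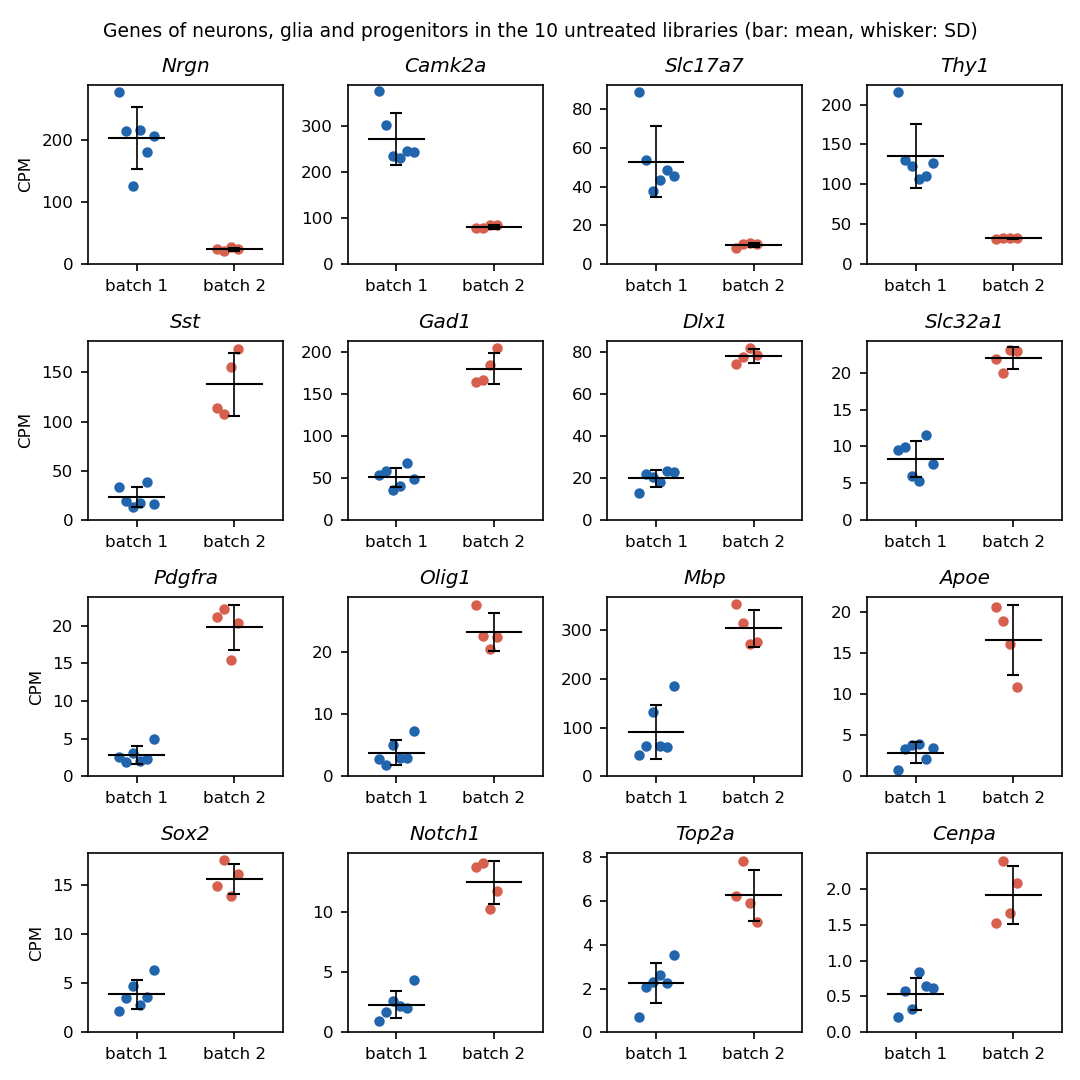
CPM of 16 genes in each untreated library, batch 1 on the left and batch 2 on the right of each panel, with 1 point a library, the mean as a bar and the SD as a whisker (n = 6 and 4), each panel from 0 on its own scale. The top row falls in batch 2 (excitatory neurons), and the rows for interneurons, glia and dividing or progenitor cells rise, with no overlap between the batches in any panel.

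Genes of the cortical layers were mixed, with 6 of 20 higher (2 with RIN as a covariate), 5 lower and a median of 0.17. Cux2, of upper layer neurons, did not pass the test, at 116 to 168 CPM in batch 1 and 157 to 170 CPM in batch 2. Emx1, which marks cells born in the cortical wall, fell from 12.8 to 17.9 CPM to 6.39 to 7.52 CPM (-1.25 ± 0.12, adjusted p = 6.6e-06), and Mef2c, an activity-dependent transcription factor gene of excitatory neurons, from 1083 to 1488 CPM to 663 to 800 CPM (-0.90 ± 0.11). Lhx2, a selector gene of cortical progenitors and upper layer neurons, fell by 0.73. Bcl11b rose, from 25.9, 29.2, 26.5, 26.2, 31.6 and 30.2 CPM to 69.9, 64.3, 73.2 and 82.3 CPM (1.36 ± 0.09, adjusted p = 2.7e-07). It encodes a zinc finger protein of layer 5 projection neurons that interneurons and striatal neurons carry too. Both batches held Cux2 and Mef2c at more than 100 CPM. All 50 genes of the midbrain, hindbrain and spinal cord together had 1.28 to 3.52 summed CPM (on unscaled totals) in batch 1 and 3.76 to 5.47 in batch 2, and 5 were tested. Of these 5 genes 1 was higher and 1 lower (median -0.09), and with all 12 control libraries 2 and 0 (median 1.87). With no filter on low counts 46 were tested, most at a mean count of 5 or less, and 10 were higher and 1 lower (median 2.54). Hippocampal genes were lower in 5 of 9 cases and higher in 2 (median -0.83), led by Ccn3, a secreted matricellular protein gene, from 38.2 to 96.3 CPM to 8.11 to 10.3 CPM (-2.66 ± 0.24, adjusted p = 3.6e-06), and Wfs1, an endoplasmic reticulum membrane protein gene of CA1 neurons, from 47.5 to 98.6 CPM to 16.8 to 18.4 CPM (-1.83 ± 0.17). Of 7 thalamic and hypothalamic genes 1 was higher, Tcf7l2, a Wnt pathway factor of thalamic neurons that oligodendrocytes share (2.72 ± 0.45, adjusted p = 0.00044), and 2 were lower. Of the 7 Cajal-Retzius genes 1 was higher (Reln, the secreted protein reelin, 0.81 ± 0.12) and 1 lower (Calb2).

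Immediate early genes, which neurons transcribe within minutes of activity, were higher in 11 of 21 cases and lower in 3, with a median of 0.99. Egr1, a zinc finger factor, had 40.3, 5.6, 8.17, 6.13, 4.41 and 11.1 CPM in batch 1 and 48.4, 51.9, 48.9 and 59.5 CPM in batch 2 (2.06 ± 0.48, adjusted p = 0.0042). Fos had 42.4, 3.16, 7.3, 7.32, 2.99 and 11.4 CPM and 35.7, 37.4, 42.1 and 46.8 CPM, so that library 1 of batch 1 stood within batch 2 (1.71 ± 0.56, adjusted p = 0.026, and 0.052 without library 23). Over the list library 1 had a mean log2 CPM of 4.57, the other libraries of batch 1 had 2.78 to 3.45, and those of batch 2 had 4.28 to 4.43. Without library 1, 18 of the 21 genes were higher and 3 lower, with a median of 1.26, and without the Xist-high libraries, library 1 among them, 17 and 3. With RIN as a covariate 0 were higher and 3 lower, with a median of 0.09, and library 1 had the lowest RIN of batch 1. The 3 that were lower were Inhba, an activin subunit gene (-1.02 ± 0.10, adjusted p = 7.2e-06), Homer1, a postsynaptic scaffold gene (-0.60 ± 0.09), and Egr3, a factor related to Egr1 (-0.64 ± 0.17).

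The oligodendrocyte lineage was among the lists that differed most. Of 14 tested precursor genes 10 were higher in batch 2 and 0 lower, with a median of 2.14. Pdgfra, the PDGF receptor that keeps precursors dividing (chr5:75152292-75198215), had 2.55, 1.96, 3.03, 2.07, 2.32 and 5.01 CPM in batch 1 and 21.2, 22.2, 15.4 and 20.3 CPM in batch 2 (2.81 ± 0.22, adjusted p = 1.4e-06). Olig1, a basic helix-loop-helix factor of the lineage, had 2.83, 1.84, 5, 2.94, 2.89 and 7.32 CPM and then 27.7, 22.6, 20.5 and 22.5 CPM (2.62 ± 0.28, adjusted p = 1.5e-05). Library 6 was the highest of batch 1 in both genes and stayed below every library of batch 2. Nkx2-2, a homeobox gene of the lineage, was at most at 0.554 CPM in batch 1 and at 1.75 to 2.61 CPM in batch 2 (3.10 ± 0.42, adjusted p = 8.7e-05), and Gpr17, a receptor of cells about to differentiate, rose from 0.56 to 2 CPM to 4.68 to 8.88 CPM (2.58 ± 0.32).

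Of 14 myelin genes 9 were higher and 1 lower, with a median of 1.17. Mbp, the myelin basic protein, had 44.2, 61.4, 132, 62.5, 59.3 and 185 CPM in batch 1 and 353, 315, 271 and 276 CPM in batch 2 (1.74 ± 0.32, adjusted p = 0.00081). Cnp, a phosphodiesterase of myelinating cells, Myrf, the factor that drives myelin genes, and Enpp6, a marker of newly formed oligodendrocytes, rose by 1.84, 2.27 and 2.54. Libraries 3 and 6 were the highest of batch 1 in Mbp and Cnp. Tspan2, a tetraspanin gene that neurons also carry, was lower, from 16.2 to 24.5 CPM to 12.2 to 16.1 CPM (-0.67 ± 0.13). Without the Xist-high libraries, which leave libraries 2 and 6 in batch 1, 9 precursor genes and 8 myelin genes were higher and 0 and 1 lower. There were 9 precursor genes and 4 myelin genes higher with RIN as a covariate.

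Astrocyte genes gave a divided picture. Of 19 tested members 7 were higher and 3 lower, with a median of 0.51. Apoe, the lipid carrier of astrocytes and microglia, had 0.747, 3.31, 3.87, 3.94, 2.05 and 3.41 CPM in batch 1 and 20.6, 18.9, 16.1 and 10.9 CPM in batch 2 (2.54 ± 0.32, adjusted p = 5e-05). Sox9, a factor of astrocytes and their progenitors, rose from 4.06 to 8.84 CPM to 16.2 to 19.3 CPM (1.48 ± 0.18, adjusted p = 4.2e-05), and Gja1 and Mlc1, membrane protein genes of mature astrocytes, rose by 2.26 and 2.35 from levels under 1 CPM. The defining genes of mature astrocytes were near 0 in both batches, with Gfap at 0.0622 to 0.677 CPM and 0.425 to 1.18 CPM (0.93 ± 0.53, adjusted p = 0.17) and Aqp4 at 0 to 1.66 CPM and 0.39 to 1.11 CPM. Clu, a secreted chaperone gene that neurons carry too, Gpc5, a glypican gene, and Glul, glutamine synthetase, were lower (-0.99 ± 0.20, -0.67 ± 0.16 and -0.38 ± 0.09). In the reactive astrocyte list 5 of 17 were higher and 1 lower, but 4 of the 17 were tested only through batch 2, and of the other 13 genes 3 were higher and 1 lower. Without the Xist-high libraries 3 of the 17 were higher and 1 lower. Among those that rose was Vim, an intermediate filament gene of progenitors and glia (1.33 ± 0.25, adjusted p = 0.0011). With RIN as a covariate 0 of the 17 passed in either direction, and 3 of the 19 astrocyte genes were higher.

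Microglia genes were higher in 12 of 16 tested cases and lower in 0, with a median of 2.18, at low levels. Over all 24 members in the count table, tested or not, the summed CPM (on unscaled totals) was 8.85 to 18.3 in batch 1 and 21.8 to 42.1 in batch 2. For 7 of the 16 the mean count in batch 1 was 5 or less, so that they were tested because of batch 2 and their share is no support. Of the other 9 genes 7 were higher and 0 lower (median 1.92), and without the Xist-high libraries 11 of the 16 were higher. Ctss, the protease cathepsin S of microglia (chr3:95526786-95556403), had 0, 0.15, 0.584, 0.875, 0.57 and 0.123 CPM in batch 1 and 4.13, 2.91, 5.26 and 1.96 CPM in batch 2 (3.20 ± 0.58, adjusted p = 0.00079). Ptprc, the leukocyte surface phosphatase CD45, is one of the genes tested only through batch 2 and is given as a level, at most 0.146 CPM in batch 1 and 0.866 to 1.49 CPM in batch 2. Library 24 was the lowest of batch 2 and overlapped with batch 1 in Cx3cr1, the fractalkine receptor (0.0638 CPM), and in Tyrobp, an adaptor of microglial receptors (0.0213 CPM), both also tested only through batch 2. Of the 16 genes 7 were higher with RIN as a covariate, and where at least 10 counts were required in every library only 3 were tested, of which 2 were higher. Aif1, which encodes the microglial protein IBA1, did not pass the test (0.28 ± 0.71, adjusted p = 0.77).

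Genes of the G2 and M phases of the cell cycle were higher in 17 of 32 cases and lower in 0, with a median of 0.72. The proteins of this list pull chromosomes apart and divide the cell. Top2a, the topoisomerase that untangles chromosomes (chr11, minus strand), had 0.716, 2.08, 2.3, 2.63, 2.24 and 3.51 CPM in batch 1 and 6.2, 7.83, 5.91 and 5.04 CPM in batch 2 (1.48 ± 0.29, adjusted p = 0.0014). Cenpa, the histone variant of centromeres, had 0.218, 0.572, 0.328, 0.836, 0.64 and 0.615 CPM and then 1.52, 2.39, 1.66 and 2.08 CPM (1.83 ± 0.33, adjusted p = 0.00082). Cdk1, the kinase that starts mitosis, rose from 0.156 to 0.451 CPM to 0.564 to 0.866 CPM (1.52 ± 0.41, adjusted p = 0.01), and Kif11, the motor that separates the spindle poles, from 1.56 to 2.59 CPM to 3.62 to 4.05 CPM (0.90 ± 0.18, adjusted p = 0.0018). The groups did not overlap in these 4 genes. Mki67, the proliferation antigen Ki-67, ranged from 1.8 to 11.3 CPM in batch 1 and from 7 to 13.4 CPM in batch 2 and did not pass the test (0.89 ± 0.38, adjusted p = 0.077), but did without library 6 (1.21, adjusted p = 0.016). The count was 8 without library 21, 9 without library 22 and 12 to 19 without any other single library. It was 9 without the Xist-high libraries, 5 with RIN as a covariate and 7 in 1 fit of all 6 groups, with 0 lower each time. The median in these 3 fits was 0.53, 0.93 and 0.68.

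The 4 promoters shown are those of the called G2 and M phase genes with the smallest p among members with a RefSeq window. Genes of 1 chromosome were left out of this choice. The list was used because such genes are known for 2 sequence elements that bring their transcription together late in the cycle. These are the CCAAT box, bound by NF-Y, and the cell cycle homology region near the start site, bound by DREAM and B-Myb complexes. Each window runs 5′ to 3′ on the gene's strand from 250 bases before to 50 bases after the RefSeq start on GRCm38, and capitals mark CCAAT or its reverse complement ATTGG and TTTGAA or its reverse complement TTCAAA, which do not overlap each other here. The windows are chr5:30666636-30666935 (plus strand), chr11:99024140-99024439 (minus), chr19:37376132-37376431 (plus) and chr10:69352863-69353162 (minus).
Cenpa: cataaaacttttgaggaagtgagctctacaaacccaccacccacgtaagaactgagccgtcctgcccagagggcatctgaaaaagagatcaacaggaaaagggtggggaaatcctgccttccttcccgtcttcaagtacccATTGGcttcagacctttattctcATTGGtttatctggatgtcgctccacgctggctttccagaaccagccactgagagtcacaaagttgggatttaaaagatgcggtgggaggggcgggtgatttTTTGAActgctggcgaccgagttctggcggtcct
Top2a: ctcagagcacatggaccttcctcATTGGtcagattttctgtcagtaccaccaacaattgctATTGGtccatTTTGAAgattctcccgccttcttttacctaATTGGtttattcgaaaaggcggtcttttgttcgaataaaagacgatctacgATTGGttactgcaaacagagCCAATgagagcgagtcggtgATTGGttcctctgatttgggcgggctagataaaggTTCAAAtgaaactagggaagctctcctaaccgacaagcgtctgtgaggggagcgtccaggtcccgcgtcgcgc
Kif11: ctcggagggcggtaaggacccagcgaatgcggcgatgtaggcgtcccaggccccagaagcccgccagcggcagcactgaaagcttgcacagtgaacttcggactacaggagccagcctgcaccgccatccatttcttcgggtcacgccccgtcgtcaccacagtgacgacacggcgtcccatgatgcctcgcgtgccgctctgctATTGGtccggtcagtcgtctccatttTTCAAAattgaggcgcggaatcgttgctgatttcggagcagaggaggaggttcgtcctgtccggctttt
Cdk1: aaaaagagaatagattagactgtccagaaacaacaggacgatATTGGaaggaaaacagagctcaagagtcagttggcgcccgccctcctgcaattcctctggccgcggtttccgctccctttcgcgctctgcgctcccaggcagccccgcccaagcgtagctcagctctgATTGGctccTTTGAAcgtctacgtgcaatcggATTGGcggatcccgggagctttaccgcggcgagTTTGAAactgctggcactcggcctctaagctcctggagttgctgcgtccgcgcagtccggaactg
The Top2a window held 6 CCAAT matches and 2 of the other element, Cdk1 held 3 and 2, Cenpa 2 and 1, and Kif11 1 and 1. In Kif11 they began 45 and 19 bases before the start site. Over the 12255 tested genes with a window, 38.5% held a CCAAT match and 12.1% a match to the other element on either strand, against 21 of 27 (77.8%) and 20 of 27 (74.1%) windows of the whole list and 12 of 15 (80.0%) and 11 of 15 (73.3%) of its members called higher. Called members therefore held the elements about as often as the list they came from, and a match is a sequence description and not a measured binding site.

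The other dividing and progenitor lists did not all follow. S phase genes were higher in 4 of 28 cases and lower in 3 (median 0.22), beside 20.2% and 20.1% of all genes. The counts were 4 and 1 without library 22, 5 and 1 with upper-quartile scaling and 1 and 1 with RIN as a covariate. Mcm7, of the replicative helicase, rose from 15.4 to 21.2 CPM to 27.8 to 32.8 CPM (0.71 ± 0.10, adjusted p = 0.00015), Mcm2 of the same helicase was at 3.75 to 6.33 CPM and 4.23 to 6.43 CPM, and E2f1, a factor that switches on S phase genes, fell from 17.1 to 21.9 CPM to 9.08 to 10.2 CPM (-1.03 ± 0.10, adjusted p = 9.6e-06). Neural progenitor genes were higher in 12 of 22 cases and lower in 2 (10 and 2 without the Xist-high libraries), with a median of 1.05. Id1, among those that rose, was tested only through batch 2, and of the other 21 genes 11 were higher and 2 lower (median 1.01). Sox2, the factor that keeps progenitors undifferentiated (chr3:34650405-34652461), had 2.21, 3.55, 4.71, 2.83, 3.64 and 6.4 CPM in batch 1 and 14.9, 17.5, 13.9 and 16.1 CPM in batch 2 (2.00 ± 0.22, adjusted p = 2e-05). Notch1, the receptor that holds radial glia in their state, had 0.933, 1.71, 2.63, 2.23, 2.04 and 4.37 CPM and 13.8, 14.1, 10.3 and 11.8 CPM (2.43 ± 0.28, adjusted p = 3e-05). Ednrb, an endothelin receptor gene of glial progenitors, rose by 2.39, and Pax6, the dorsal radial glia factor, by 1.4. The 2 lower members were Fabp5 and Dbi, lipid-binding protein genes that many cells carry (-0.48 ± 0.09 and -0.49 ± 0.11). Intermediate progenitor genes were higher in 3 of 9 cases (5 without library 6 and 1 with RIN as a covariate) and lower in 0, and Eomes, their defining factor, did not pass the test (1.04 ± 0.46, adjusted p = 0.086), but did without library 6 (1.55, adjusted p = 0.0078).

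Replication-dependent histone genes, whose messages end in a stem-loop in place of a poly(A) tail, were higher in 24 of 64 cases and lower in 1, with a median of 0.53. Hist1h1c, a linker histone gene that also gives polyadenylated message, had 96.9, 59.7, 65, 80.6, 50.5 and 83.8 CPM in batch 1 and 147, 131, 118 and 145 CPM in batch 2 (0.90 ± 0.15, adjusted p = 0.00039). Hist1h3b had 1.07 to 3.88 CPM and 4.28 to 5.54 CPM (1.57 ± 0.31). There were 2 higher and 0 lower with RIN as a covariate. Histone genes lie in clusters of near-identical copies, so reads of shared stretches may be split between them or discarded, and single members are uncertain.

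Of 186 stress entries 64 were lower and 23 higher in batch 2 (64 and 22 of 183 without those tested only through batch 2). Of protein-coding genes in the highest group of 3 by mean level 46.0% were lower and 11.3% higher. In that group stood 84 of the stress entries, of which 54.8% were lower and 7.14% higher, and 113 of the neuronal entries, of which 59.3% were lower and 14.2% higher. The 11 mitochondrially encoded genes and the 6 glial entries of that group leaned the other way, with 11 and 4 higher, and the part of level in these falls was not tested. Of 25 genes of the unfolded protein response, which raises the folding capacity of the endoplasmic reticulum, 14 were lower and 2 higher (median -0.33). Calr, the calcium-binding chaperone calreticulin, had 228 to 417 CPM in batch 1 and 154 to 177 CPM in batch 2 (-0.81 ± 0.14, adjusted p = 0.0005), Manf, a secreted stress-induced factor, fell from 41.4 to 50.8 CPM to 21.4 to 29.5 CPM (-0.94 ± 0.09), and Hspa5, the main chaperone of that compartment, fell by 0.29. Ern1, the stress sensor IRE1, and Crebrf, a regulator of the factor CREB3, rose by 0.77 and 0.88. Of 22 heat shock genes 12 were lower and 2 higher (median -0.37). Bag3, among those that rose, was tested only through batch 2, and of the other 21 genes 12 were lower and 1 higher (median -0.38). Hsph1, a co-chaperone of the HSP70 machine, had 186, 152, 112, 147, 133 and 116 CPM in batch 1 and 64.8, 57.4, 67 and 60.8 CPM in batch 2 (-1.17 ± 0.13, adjusted p = 1.6e-05), and Hsp90aa1 had 1079 to 1641 CPM and 657 to 785 CPM (-0.86 ± 0.11, adjusted p = 6e-05). The inducible Hspa1b did not pass the test, at 9.11 to 15.7 CPM and 10.6 to 16.5 CPM. Many of these chaperones, Hspa8 among them (-0.44 ± 0.09), are abundant in unstressed neurons.

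Genes of hypoxia and glycolysis were lower in 16 of 29 cases and higher in 2 (median -0.44). Tpi1, a glycolytic isomerase, fell from 54.4 to 93.5 CPM to 31.9 to 37.1 CPM (-0.97 ± 0.14, adjusted p = 0.00014), and Ldha, lactate dehydrogenase, from 108 to 160 CPM to 69.1 to 76 CPM (-0.85 ± 0.11). The hypoxia target Vegfa did not pass the test, at 67.1 to 123 CPM and 98.4 to 108 CPM, and Pfkp, a phosphofructokinase, rose by 0.68 ± 0.16. Oxidative stress genes were lower in 9 of 20 cases and higher in 1, led by Gsta4, a glutathione transferase that detoxifies lipid aldehydes, from 5.44 to 9.8 CPM to 1.28 to 1.98 CPM (-2.24 ± 0.22, adjusted p = 7e-06). Hmox1, the heme oxygenase that stress induces, had 3.89 CPM in library 1, 0.766 to 0.931 CPM in the other batch 1 libraries and 2.11 to 3.08 CPM in batch 2 (0.91 ± 0.43, adjusted p = 0.1, but 1.56 and 0.00014 without library 1).

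Library 1 also stood apart in genes of the integrated stress response, in which eIF2 phosphorylation lets Atf4 be translated. Of 29 genes 1 was higher and 1 lower, and the median was -0.03, although the mean level over the list was higher in batch 2 (5.12 to 5.24 mean log2 CPM) than in libraries 2 to 6 of batch 1 (4.41 to 5.01), with library 1 at 6.03. Atf4 had 454, 134, 200, 239, 152 and 246 CPM in batch 1 and 215, 190, 224 and 232 CPM in batch 2. Without library 1, 13 genes were higher and 1 lower, with a median of 0.29, without the Xist-high libraries 12 and 1, and with RIN as a covariate 0 were higher and 17 lower, with a median of -0.61. No direction is given for this list. Of 22 p53 targets 7 were higher (1 with RIN as a covariate) and 6 lower. Cdkn1a, the cell cycle inhibitor p21, rose by 0.52 ± 0.10 and Trp53 itself by 0.70 ± 0.12, while Pmaip1, the cell death gene Noxa, fell by 0.69 ± 0.16. Targets of the glucocorticoid receptor, which matter because the untreated cultures are the baseline of the treated ones, were higher in 6 of 17 cases (2 with RIN as a covariate) and lower in 3. The count of lower targets was 0 without library 21, 22 or 23 and 0 with upper-quartile scaling. It was also 0 with at least 10 counts in every library, with all 12 control libraries and in 1 fit of all 6 groups. Tsc22d3, a strongly induced target also called GILZ, had 15.8, 9.36, 6.97, 7.72, 7.82 and 11.5 CPM in batch 1 and 18.3, 21.9, 23.7 and 22.7 CPM in batch 2 (1.14 ± 0.19, adjusted p = 0.00051). Fkbp5, a co-chaperone of the receptor, was lower by a small amount with overlapping batches (-0.29 ± 0.11, adjusted p = 0.048), and Klf9, a zinc finger target, was lower as well (-0.74 ± 0.28, adjusted p = 0.048). Fkbp5 lost its call without any 1 of libraries 2, 3, 4, 6 and 21 to 24 (adjusted p between 0.056 and 0.14) and Klf9 without any 1 of libraries 2, 5 and 21 to 24 (0.057 to 0.11). Interferon and antigen presentation genes were higher in 2 and lower in 2 of 16, with H2-K1, a class I histocompatibility gene, falling from 28.9 to 51.9 CPM to 16 to 24.8 CPM (-0.87 ± 0.18, adjusted p = 0.0017). Their count of higher genes was 0 without library 22, 0 to 3 over single libraries left out and 0 with RIN as a covariate. Of 6 metallothionein and zinc genes 1, Mt1, was lower (-0.57 ± 0.21, adjusted p = 0.045, and 0.065 to 0.12 without any 1 of libraries 1, 6, 21, 22 and 23) and 0 were higher.

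Of the 13 protein genes of mitochondrial DNA 12 were higher in batch 2 and 0 lower (median 0.87), with mt-Co1, a subunit of cytochrome oxidase, at 2813 to 4879 CPM in batch 1 and 5943 to 6876 CPM in batch 2 (0.86 ± 0.14, adjusted p = 0.00029). Ribosomal protein genes were lower in 29 of 84 cases and higher in 1, with a median of -0.18. Of these genes 80 stood in the highest group by mean level, where 36.2% were lower, beside 46.0% of all protein-coding genes there. Rpl41, a short protein of the large subunit, had 187 to 263 CPM and 104 to 172 CPM (-0.65 ± 0.13), and with upper-quartile scaling 13 were lower and 2 higher. The count of lower genes was 14 without library 23, 15 without library 24, 14 with RIN as a covariate and 0 with all 12 control libraries, where the median turned to 0.31. Of 134 processed pseudogenes of these genes, near-identical copies for which the study's methods kept only reads of a single locus, 5 were lower and 0 higher (14 and 1 by DESeq2, 16 and 3 at an unadjusted p under 0.05). Genes of cholesterol synthesis were lower in 12 of 24 cases and higher in 2. In the highest group by mean level stood 22 of them, of which 54.5% were lower and 9.09% higher. Of all protein-coding genes there 46.0% were lower and 11.3% higher. Lss, lanosterol synthase, rose from 180 to 281 CPM to 450 to 481 CPM (0.90 ± 0.11, adjusted p = 4e-05) and Stard4, a sterol transfer protein gene, fell by 0.78.

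Markers of other cells were low in both batches. All summed CPM of lists, here and above, are over every member in the count table, tested or not, on unscaled library totals. For 16 endothelial genes the sum was 9.53 to 11.7 in batch 1 and 8.85 to 12.3 in batch 2. It was 4.05 to 8.26 and 5.13 to 8.62 for 14 genes of pericytes and smooth muscle. For 15 genes of the choroid plexus and ependyma it was 6.69 to 9.34 and 5.83 to 9.65, and for 10 of red blood cells 0.748 to 4.55 and 2.22 to 3.27. Fibroblast and meningeal genes summed to 21.3 to 35.7 and 46.5 to 51.3 CPM, and Pdgfra, which oligodendrocyte precursors share, is in that list. Among their defining markers, Col1a1, a fibroblast collagen, was at 0.215 to 0.597 CPM and 0.243 to 0.872 CPM, Cldn5, of endothelial tight junctions, at 0.0308 to 0.159 CPM and 0.0297 to 0.362 CPM, and Pdgfrb, the PDGF receptor of pericytes, was lower (-1.64 ± 0.38, adjusted p = 0.004). In all these lists together 12 of 48 tested entries were higher and 4 lower, of which 6 that were higher had been tested only through batch 2. Their part in the differences above was not tested.

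Beyond the lists, the protein-coding genes with the largest rise among those at 1 CPM or more, without overlap and with the same direction in the treated cultures were Lilr4b and Itgb2, leukocyte receptor and integrin genes, Spp1, the secreted protein osteopontin, Crhbp, the binding protein of corticotropin-releasing hormone that somatostatin interneurons make, Pappa, a protease that cleaves IGF-binding proteins, Plxnb3, a plexin of the oligodendrocyte lineage, and Bcan, the proteoglycan brevican, besides Ctss, Nkx2-2 and Pdgfra. Spp1 had 0 to 3.86 CPM in batch 1 and 5.89 to 15.6 CPM in batch 2 (3.48 ± 0.74, adjusted p = 0.0023), and Bcan had 1.47 to 4.77 CPM and 14.7 to 22 CPM (2.77 ± 0.27, adjusted p = 7.5e-06). Crhbp was at most 0.218 CPM in batch 1 and at 0.662 to 1.43 CPM in batch 2. Genes below 1 CPM in every library of batch 1, Crhbp, Nkx2-2 and Ctss among them, met the bound only through batch 2. Such a selection favors a rise, so their place here is no support. The largest falls, after Nrgn and beside Ccn3, were Aldh3b2, Gpr6, Rgs14, Kcnj16, Gng13, Resp18, Layn and Gstm6. Rgs14, a regulator of G protein signaling known from hippocampal CA2 neurons, fell from 1.97 to 3.3 CPM to 0.312 to 0.623 CPM (-2.62 ± 0.28, adjusted p = 1.4e-05), and Kcnj16, a potassium channel subunit gene, from 3.25 to 5.76 CPM to 0.574 to 0.896 CPM (-2.61 ± 0.24). Both were below 1 CPM in batch 2 and met the bound only through batch 1, which favors a fall.

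The kind of gene also went with the direction. Of 1675 genes of the GENCODE class TEC, provisional models that mostly lack splicing, 47.4% were higher in batch 2 and 0.7% lower, and of 150 sense intronic transcripts 41.3% and 0%. Long intergenic RNAs were higher in 27.5% and lower in 6.3% of 670 cases and antisense transcripts in 25.8% and 2.7% of 928. Processed pseudogenes leaned the other way, with 4.6% higher and 11.6% lower of 1727. The strand setting of the counting is not stated, so reads of an antisense gene and its partner cannot be told apart. Protein-coding genes were higher in 18.0% and lower in 26% of 14622 cases. In equal groups of 4874 by mean level, the lowest were higher in 23.9% and lower in 7.2%, and the highest in 11.3% and 46.0%. For 835 genes the mean count in batch 1 was 5 or less, and 44.3% of these were higher in batch 2, as their selection favors. The differences in glial, interneuron and progenitor genes thus stand beside calls of TEC, sense intronic, antisense and long intergenic genes that leaned to higher in batch 2. The batch 2 libraries also held a larger share of mitochondrial RNA. The part of either in the results was not tested.

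**Figure D4:**
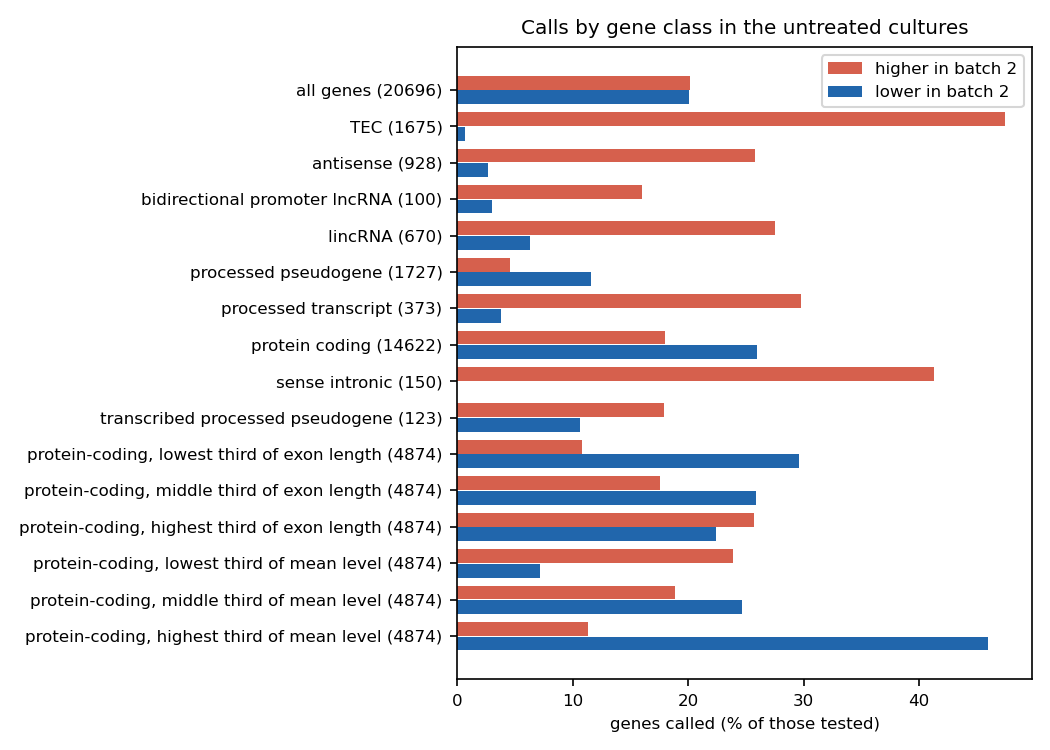
Share of tested genes called higher (red) or lower (blue) in batch 2 of the untreated cultures, in percent from 0, for all genes, for each gene class with its number of genes in parentheses, and for protein-coding genes split into 3 equal groups by exon length and by mean level. TEC, sense intronic, antisense and long intergenic genes lean to higher, and processed pseudogenes and highly expressed protein-coding genes to lower, while all genes divide evenly (20.2% and 20.1%).

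The same comparison in the treated cultures used other libraries of the same batches. In DEX libraries 1821 genes (8.8%) were higher in batch 2 and 1905 (9.2%) lower, and in DEX + RU-486 libraries 696 (3.36%) and 695 (3.36%). With the libraries of low RIN added these were 30 and 80 in DEX and 0 and 15 in DEX + RU-486 (edgeR, where an unadjusted p under 0.05 gave 1609 and 1044 in DEX + RU-486). Of the 4186 genes called higher in the untreated cultures, 85.2% were also higher by fold change in DEX and 1226 were called (29.3% of the untreated calls and 67.3% of those of DEX), and 15 were called lower. Of the 4153 called lower, 86.2% had the same sign in DEX and 1289 were called (31% and 67.7%), with 18 called higher. In DEX + RU-486, 533 of those higher were called (12.7% of the untreated calls, 76.6% of its own) and 527 of those lower (12.7% and 75.8%).

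Mature neuron and interneuron genes differed between batches in DEX as well, and fewer passed the edgeR test in DEX + RU-486. Of 20 mature neuron genes 8 were lower and 1 higher in DEX and 4 and 0 in DEX + RU-486, and of 28 interneuron genes 14 were higher and 4 lower in DEX and 1 and 3 in DEX + RU-486. In DEX + RU-486 DESeq2 gave 8 mature neuron genes lower and 0 higher (9 and 0 at an unadjusted p under 0.05). It gave 3 interneuron genes higher and 5 lower (10 and 7 unadjusted). The median of the 16 interneuron members other than receptor subunits was 1.49 in DEX and 0.93 in DEX + RU-486, and that of the 12 subunits -0.23 and -0.25. Nrgn had 244, 134, 133, 179 and 158 CPM in the DEX libraries of batch 1 and 21.4, 25.5, 15.8 and 32 CPM in those of batch 2, with CPM here on unscaled totals (-2.87, adjusted p = 4.8e-06). Sst had 54.8, 20.1, 27.1, 24 and 26.4 CPM and then 148, 142, 151 and 115 CPM (2.13, adjusted p = 0.00012). In DEX + RU-486 the batch 2 libraries 35 and 36 stood near batch 1, with Nrgn at 89.4 and 90.4 CPM against 20.9 and 27.9 CPM in libraries 33 and 34, and Sst at 32 and 37.8 CPM against 144 and 105 CPM. There the difference was -1.89 for Nrgn (adjusted p = 0.014) and 1.44 for Sst (adjusted p = 0.053). Without libraries 35 and 36 that contrast gave 131 genes higher and 223 lower.

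The batch difference was larger in untreated than in treated cultures for most myelin genes and for a smaller share of immediate early and histone genes. The contrast of the batch difference in untreated cultures minus the mean of that in DEX and DEX + RU-486 was called for 945 genes (4.57%), 272 above 0 and 673 below (228 in all with the libraries of low RIN added). Of 14 myelin genes 11 were above 0, while the median batch difference was 1.17 in control, 0.10 in DEX and -0.60 in DEX + RU-486. For Mbp the interaction was 1.76 (adjusted p = 0.0082), with 215 to 481 CPM in DEX batch 1 and 321 to 500 CPM in DEX batch 2. Of 21 immediate early genes 7 were above 0 (medians 0.99, -0.29 and -0.36), and for Egr1 it was 1.80 (adjusted p = 0.023). Of 64 histone genes 13 were above 0 (medians 0.53, -0.26 and -0.34). Calls also went the other way in treated cultures, since 12 histone genes were lower and 0 higher in DEX (edgeR, with 17 and 3 at an unadjusted p under 0.05 and 13 and 0 by DESeq2), and 5 myelin genes were lower and 0 higher in DEX + RU-486 (7 and 0 unadjusted, and 5 and 0 by DESeq2). Precursor genes were above 0 in 3 of 14 cases, with medians of 2.14, 1.07 and 0.44. The medians were 1.92, 0.96 and -0.08 for the 9 microglia genes that were not tested only through batch 2 of the untreated cultures, and 0.72, 0.51 and 0.25 for G2 and M phase genes, but few of these passed the test in treated cultures. Of 16 microglia genes 2 were higher in DEX and 0 in DEX + RU-486 (edgeR, with 2 and 2 at an unadjusted p under 0.05 and 2 and 0 by DESeq2), and of 32 G2 and M phase genes 0 and 0 (5 and 1 unadjusted, and 1 and 1 by DESeq2). Of 20 mature neuron genes 2 were below 0, and for Nrgn the interaction did not pass the test (-0.74, adjusted p = 0.28). Batch 1 control libraries were deeper (24200944 to 82437454 reads) than DEX libraries of batch 1 (12133485 to 15135027 reads) and had a higher RIN (7.8 to 9.2 against 6.2 to 7.8), and the part of depth and RIN in this contrast was not tested.

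**Figure D5:**
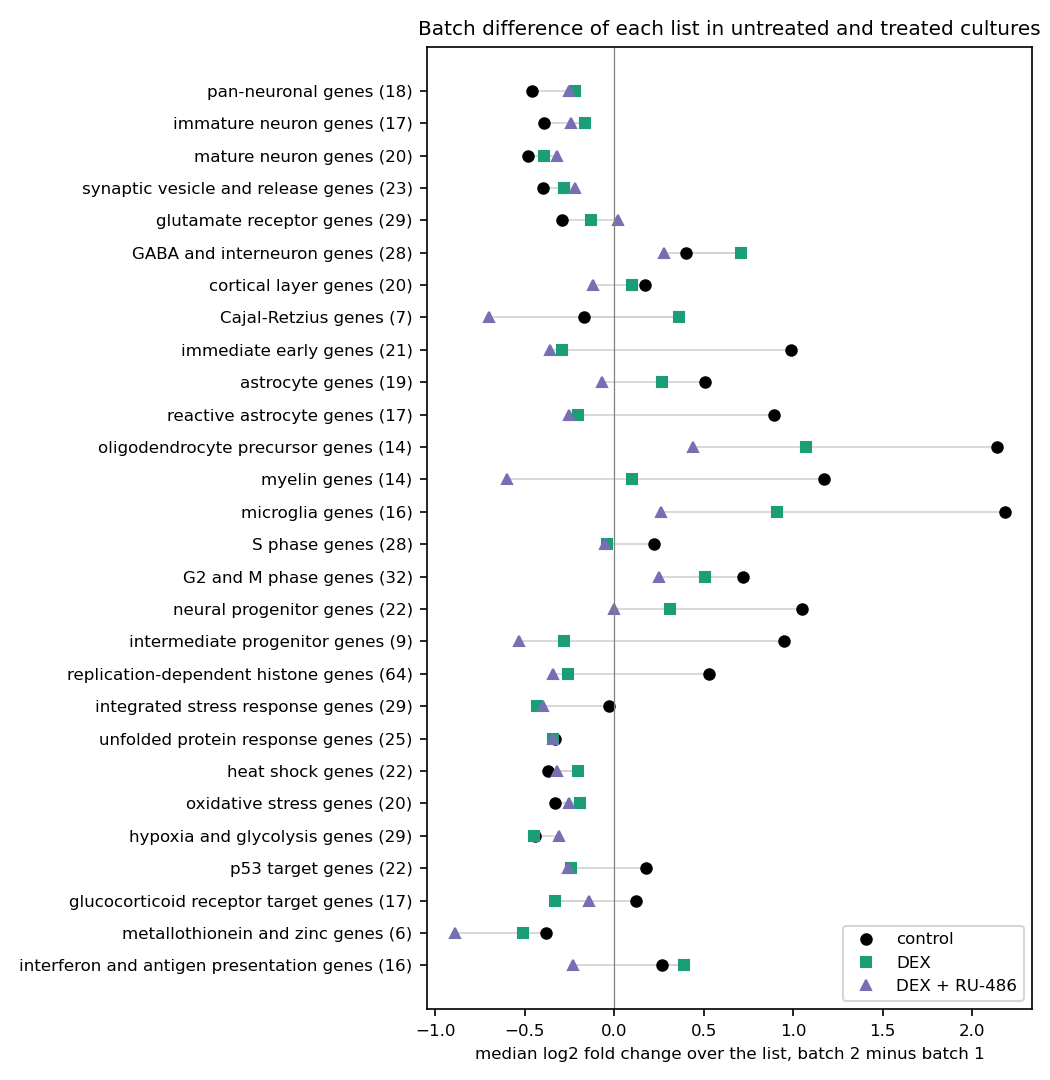
Median log2 fold change of each list, batch 2 minus batch 1, in control (black circles), DEX (green squares) and DEX + RU-486 (purple triangles) libraries with a RIN of at least 6, with the number of tested members in parentheses. Unfolded protein response and mature neuron genes have similar medians in all 3 groups, while myelin, immediate early and histone genes are positive in control and at or below 0.10 in the treated groups.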

How the data were processed

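RNAseq was read from 36 libraries of primary mouse cortical cultures, 10 of which were compared here. The deposited table holds counts of reads per gene, made by the authors with HISAT2 2.1.0 and Subread 1.5.0-p2 on GRCm38 according to the submitters' processing notes. The study's methods describe a reference of the genome plus spliced ribosomal protein mRNAs. They allowed no mismatches and dropped reads that fitted several loci. The annotation release and the strand setting are not given in the sources used here. The labels name poly(A) selection and the study's methods name a total RNA library, so the selection is unsure. Of 55492 entries 5 were transgene sequences and were left out (at most 0.000113% of a library), and 55227 IDs matched GENCODE M21, from which gene positions were taken.

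Genes with a mean count above 5 over the 10 libraries were tested with the edgeR 4.0.16 quasi-likelihood test (R 4.3.3, TMM factors, batch as the only term), with Benjamini-Hochberg adjustment over 20696 genes and a threshold of 0.05. Fold changes are log2, batch 2 minus batch 1, ± SE. CPM with an SD are over n = 6 and 4 libraries. The interaction came from 1 fit of the 6 groups of treatment and batch. Library shares were compared by an exact permutation test, two-sided, adjusted over 5. Promoter sequences came from RefSeq (GRCm38.p6). DESeq2 1.42.0 and the other alternatives are described in the closing section. On simulated counts with the spread of this comparison (20696 genes) 51 of 100 genes changed by 1 on the log2 scale and 81 of 100 changed by 2 were found, with 7 false calls. No other gene was changed there. That is far fewer than were called in the data, so these rates do not give the recovery of the comparison itself.

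The comparison, its members and the gene lists were chosen with earlier results of these data known. Each list was described by its counts and median. Genes were named by rule: the first 3 tested members of each list and up to 4 called members in each direction with the largest fold change, and the 10 protein-coding genes with the largest rise and the 10 with the largest fall (at least 1 CPM, no overlap, same direction in treated cultures). Kif11 was named through the rule for promoters, the 4 called members with the smallest p among those with a RefSeq window. Genes of 1 chromosome were left out of that rule. Some genes that the rule picks are not reported here, and Cck was named after its value was seen. Xist and Ddx3y were followed because the libraries stood apart in them, which was seen in the data.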

Additional observations from a re-analysis of the deposited data

Results flagged for a closer look

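In some groups 1 library stood apart from the rest by Dixon's test, in 26 of 370 groups checked (7.0%, where chance gives about 1 in 20). In batch 1 library 1 stood apart in the mean log2 CPM of immature neuron genes (8.16), immediate early genes (4.57), G2 and M phase genes (-0.27), integrated stress response genes (6.03), hypoxia and glycolysis genes (5.61) and glucocorticoid receptor targets (3.18), and library 6 in that of ribosomal protein genes (7.26). Library 1 also stood apart in Clu (22.9 CPM), Cux2 (116 CPM), Gja1 (0.0311 CPM), Grm3 (32.5 CPM), Hmox1 (3.89 CPM), Klf9 (27 CPM), Syn1 (390 CPM), Thy1 (216 CPM) and Top2a (0.716 CPM), and library 6 in Hist1h3b (3.88 CPM). Library 1 had the lowest RIN of batch 1 (7.8). In batch 2 the libraries apart were library 21 in Emx1 (7.52 CPM) and Slc17a7 (8.26 CPM), library 23 in Hist1h3b (4.28 CPM) and Inhba (16.9 CPM), and library 24 in Gstm6 (0 CPM), Homer1 (76.8 CPM), Ppp1r1b (2.19 CPM), Tspan2 (16.1 CPM) and Tyrobp (0.0213 CPM).

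For 26 of the genes named in the report the batch difference in control cultures differed from the mean of that in DEX and DEX + RU-486 cultures (edgeR interaction, adjusted p under 0.05). The difference on the log2 scale was 2.43 for Nkx2-2, 1.98 for Apoe, 1.94 for Enpp6, 1.88 for Myrf, 1.78 for Cnp, 1.76 for Mbp and for Tcf7l2 and 1.54 for Olig1. It was 1.80 for Egr1, 1.45 for Notch1, 1.43 for Hist1h3b, 1.41 for Vim, 1.34 for Sox9, 1.06 for Hist1h1c, 0.87 for Tsc22d3, 0.61 for Mcm7 and 0.52 for Sox4. It was below 0 for Mef2c (-0.75), Hsph1 (-0.73), Gabra5 (-0.65), Manf (-0.56), Hsp90aa1 (-0.55), Rbfox3 (-0.54), Stard4 (-0.53), Gria1 (-0.47) and Gap43 (-0.35). The part of RIN and depth, which differed between the treatment groups of batch 1, was not tested.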

How the results depend on the processing

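No paired analysis was possible because every library has a number of its own, so the batches share no replicate numbers. No gene called in the comparison of untreated cultures was called in the opposite direction under any alternative tried. Against 4186 genes higher and 4153 lower, the counts were 1545 and 2475 with RIN as a covariate, 2640 and 2791 with all 12 control libraries, 2766 and 3815 in 1 fit of the 6 groups, and 2184 and 618 where the absolute log2 fold change also had to exceed 1. Leaving out 1 library gave 2889 to 4340 higher and 3428 to 4388 lower. DESeq2 (4397 and 4515), RLE factors (4103 and 4265), upper-quartile factors (5252 and 3173, which moved the median of all genes by 0.09), thinned counts (4024 and 4026), no filter on low counts (5107 and 4956 of 39234), at least 10 counts in every library (3576 and 3428 of 14569) and leaving out the Xist-high libraries (4314 and 4072, chosen after seeing the data) stayed within 1.5 times.

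With all libraries whatever their RIN, the DEX contrast gave 30 higher and 80 lower and that of DEX + RU-486 gave 0 and 15 (edgeR, 1609 and 1044 at an unadjusted p under 0.05). DESeq2 gave 1390 and 1436 in DEX + RU-486 and, without libraries 35 and 36 (chosen after seeing the data), edgeR gave 131 and 223. The interaction was called for 228 genes with all 36 libraries.

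Without the Xist-high libraries the batch differences in library shares were 14.2 points for mitochondrial, -0.32 for ribosomal protein, 11 for the top 50 genes and 0.814 for Malat1, and 5068 for genes with a count, thinned to the smallest library total, each at an adjusted p of 0.067, the smallest that 2 against 4 libraries can give. With all 12 control libraries the ribosomal protein difference reversed to 0.094 points (adjusted p = 0.59) and that of Malat1 was 0.231 (0.4). Leaving out 1 library gave 0.4 to 0.549 points for Malat1, which missed the threshold without library 1, 5, 22, 23 or 24.

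Medians of the neuronal, glial, dividing cell and stress lists moved by more than the spread between libraries in the following cases, and the cause was not tested. With RIN as a covariate they were -0.23 for immature neuron, -0.67 for mature neuron, -0.49 for glutamate receptor, 0.41 for Cajal-Retzius, 0.09 for immediate early, 0.66 for reactive astrocyte, 1.67 for oligodendrocyte precursor, 2.85 for microglia, 0.54 for intermediate progenitor, 0.22 for histone, -0.61 for integrated stress response, -0.15 for p53 target and -0.89 for metallothionein genes. With all 12 control libraries they were -0.63 for pan-neuronal, -0.66 for mature neuron and for synaptic vesicle, 0.06 for GABA and interneuron, 1.53 for immediate early, 1.22 for astrocyte, 1.57 for reactive astrocyte, 3.07 for oligodendrocyte precursor, 2.08 for myelin, 1.16 for G2 and M phase, 1.62 for intermediate progenitor, 0.94 for histone, -0.53 for unfolded protein response, 0.28 for glucocorticoid receptor target and 0.71 for interferon genes, and outside those lists 0.31 for ribosomal protein genes, against -0.18, and 1.4 for mitochondrially encoded genes, against 0.87. Other lists outside them moved there too. Endothelial genes had 1.25 (against 0.30), pericyte and smooth muscle genes 1.43 (0.59) and fibroblast and meningeal genes 1.2 (0.28). Midbrain, hindbrain and spinal genes had 1.87 (-0.09) and ribosomal protein pseudogenes 0.2 (-0.45). With upper-quartile factors the medians of the neuronal, glial, dividing cell and stress lists were -0.36 for pan-neuronal, -0.19 for glutamate receptor, 0.27 for cortical layer, -0.23 for unfolded protein response and -0.28 for heat shock genes. Without the Xist-high libraries they were 0.06 for cortical layer, 0.35 for Cajal-Retzius, 2.94 for microglia and 0.72 for neural progenitor genes. With no filter they were -0.4 for unfolded protein response and 0.46 for glucocorticoid receptor target genes, and with at least 10 counts in every library 0.68 for reactive astrocyte, 1.49 for microglia and -0.17 for metallothionein genes. Leaving out 1 library gave -0.32 to -0.15 for glutamate receptor, 0.42 to 0.94 for astrocyte, 0.64 to 1.14 for reactive astrocyte, 0.58 to 0.98 for intermediate progenitor, -0.49 to -0.32 for hypoxia and glycolysis and 0.05 to 0.36 for glucocorticoid receptor target genes.

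Among named genes the sign turned for Dcx (0.06), Hmox1 (-0.04), Mcm2 (-0.08) and Vegfa (-0.25) with RIN as a covariate and for Egr3 (0.12), Gria1 (-0.29), Map2 (0.63), Pdgfrb (0.02) and Rpl41 (0.30) with all 12 control libraries. It turned for Aqp4 (-0.40) and Atf4 (0.17) without the Xist-high libraries, for Atf4 without library 1 (-0.26 to 0.15 over single libraries), for Mcm2 without library 21 (-0.06 to 0.19), and for Aif1 (-0.17 to 0.72) and Col1a1 (-0.41 to 0.37) without library 24. The other values of named genes were counted together with the medians of lists outside the neuronal, glial, dividing cell and stress lists. Of these values 2823 stayed the same. For a gene this means its direction and side of the threshold, and for a median a move within the spread between libraries. Among genes 86 values lost the call and 21 gained one, and 40 values, all of them medians, moved by more than that spread. Genes near 1 CPM rest on few counts, which limits what can be said of microglia and cell cycle genes.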
